A study of Mus musculus with 6 samples.

Results

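Hmox1, Slc40a1, Fth1, Ftl1, Tfrc, Slc11a1, Lcn2, Blvrb, Hebp1 and Nfe2l2 are 10 mouse genes of iron handling and haem breakdown, and were chosen by name from the 20649 genes of a single-cell RNA sequencing (scRNA-seq) experiment. CT26 colon carcinoma cells had been grown under the skin of BALB/c mice, and the tumors received 3 intratumoral injections, on alternate days, of exosomes loaded with an antisense oligonucleotide (ASO). In 3 tumors the ASO was directed at Stat6 (exoASO-STAT6) and in 3 it was a scrambled control (exoASO-Scramble). Cells positive for CD45, the surface protein of leukocytes, were enriched from the tumors 24 h after the last injection. Both groups carried the same tumor line and received exosomes, and the mice were female and 6 to 8 weeks old when bought.

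The barcodes of the 6 tumors lie in 1 matrix, and their suffixes, 3 to 8, match no sample label. They are called libraries 3 to 8 here and their treatment is not known, so exoASO-STAT6 could not be compared with exoASO-Scramble, and no p-value is given. Levels are given as CPM, the unique molecular identifiers (UMIs) of a gene per 1000000 UMIs, both summed over all barcodes of a class in a library, and the error of a level is its spread over libraries. The 9235 barcodes held 11492757 to 33902084 UMIs per library, with a median of 11846 UMIs per barcode, and 16 barcode sequences occurred in more than 1 library.

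Macrophages clear dying cells and haemoglobin. Haem is opened by haem oxygenase 1 (Hmox1) to biliverdin, carbon monoxide and iron, biliverdin is reduced by biliverdin reductases such as Blvrb, and the iron is stored in ferritin, built of heavy (Fth1) and light (Ftl1) chains, or leaves the cell through ferroportin (Slc40a1), the only known iron exporter of mammals. Iron enters on transferrin through the transferrin receptor (Tfrc), Slc11a1 (Nramp1) pumps metal ions out of the phagosome, Lcn2 binds bacterial siderophores, Hebp1 binds haem, and Nfe2l2 (Nrf2) is the transcription factor that turns on Hmox1 and ferritin genes under oxidative stress.

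Ferritin and Tfrc messages are also controlled after transcription, by iron regulatory proteins that bind a short hairpin. In the 5′ untranslated region (UTR) of ferritin messages the bound hairpin blocks translation, and in the 3′ UTR of Tfrc the bound hairpins protect the message from decay. The hairpins are printed because the counts below measure message and not protein, and the same binding acts on the message of Tfrc but on the translation of Fth1 and Ftl1. They were searched as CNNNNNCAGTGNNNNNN in which the 5 bases before and after the 6-base loop pair, G-U pairs included, in the transcripts of the 8 members that have a RefSeq promoter entry. Hmox1 and Slc40a1 were not searched, here or for the motif below. Fth1, Ftl1 and Tfrc held 1, 1 and 4 matches. The loop is in capitals, each run is 29 bases long and reads 5′ to 3′, and the coordinates are those of the 17-base core in GRCm38 (mm10) with the GENCODE M21 annotation.
Fth1, chr19:9982738-9982754, plus strand, 5′ UTR, exon 1: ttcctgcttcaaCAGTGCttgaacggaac
Ftl1, chr7:45459785-45459801, minus strand, 5′ UTR, exon 1: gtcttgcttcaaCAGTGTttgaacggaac
Tfrc, chr16:32631225-32631241, plus strand, 3′ UTR, exon 19: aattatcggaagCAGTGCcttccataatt
Tfrc, chr16:32631604-32631620, plus strand, 3′ UTR, exon 19: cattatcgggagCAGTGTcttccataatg
Tfrc, chr16:32631669-32631685, plus strand, 3′ UTR, exon 19: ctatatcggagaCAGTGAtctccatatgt
Tfrc, chr16:32631716-32631732, plus strand, 3′ UTR, exon 19: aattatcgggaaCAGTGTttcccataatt
Such a hairpin was present in the 5′ UTR of 0.148% of 20916 genes and in the 3′ UTR of 0.613% of 21039 genes. A second search, for the antioxidant response element TGACNNNGC on both strands of the RefSeq promoters (GRCm38.p6, 250 bases before to 50 after the start), found it in 1 of the 8 members, Nfe2l2, and in 12.4% of 32851 promoters. A match of these letters describes the sequence and is not a measured binding site.

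Barcodes were classed by a few genes that are not members, so that the levels of those genes are no finding. Macrophages were 4016 barcodes with at least 3 UMIs of Csf1r and Adgre1 together, no Cd3e, Ncr1 or Flt3 and fewer than 5 UMIs of S100a9. Of these, 605 with at least 3 UMIs of Top2a and Birc5 together were called dividing. The 3411 others held a Cd163 state of 203 barcodes, with at least 2 UMIs of Cd163, and an Mmp12 state of 336 barcodes, the highest 10% by Mmp12, and 6 barcodes met both rules and were put in neither. Outside both states 1000 were C1qa-high and 1072 were Ly6c2-high, which separates mature tumor-associated macrophages (TAMs) from cells with the monocyte gene Ly6c2. Besides these there were 121 barcodes with at least 5 UMIs of S100a9 (S100a9-high) and 147 with Flt3 (dendritic), both with fewer than 3 UMIs of Csf1r and Adgre1 together, and 318 with Cd3e and no Csf1r or Adgre1 (T). The 9 classes, with 794 unsplit macrophages, held 49.8% of all barcodes.

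The classes carried their defining markers, with 1 reservation. T barcodes had 792 CPM of Cd3d against 2.72 CPM in macrophages, and dendritic barcodes had 41.0 CPM of Zbtb46 against 0.747 CPM. S100a9-high barcodes had the neutrophil genes S100a8 at 3295 CPM and Cxcr2 at 79.3 CPM, against 62.4 and 1.88 CPM in macrophages, but the macrophage gene Cd68 was at 594 CPM in them and at 610 CPM in macrophages. Of other macrophage genes, C1qa was at 567 against 3052 CPM and Lyz2 at 2281 against 6234 CPM. The barcodes are named by S100a9 and not called neutrophils. A further 571 barcodes with S100a9, 101 with Flt3 and 1056 with Cd3e also held at least 3 UMIs of Csf1r and Adgre1 and entered none of the classes. The CT26 marker Krt8 had no UMI in the 3411 non-dividing macrophages, and Hbb-bs of red blood cells was at 0.161 to 5.06 CPM there, although haemoglobin genes reached 110.6 CPM over all barcodes of library 4. The part of doublets in the results was not tested.

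**Figure D1:**
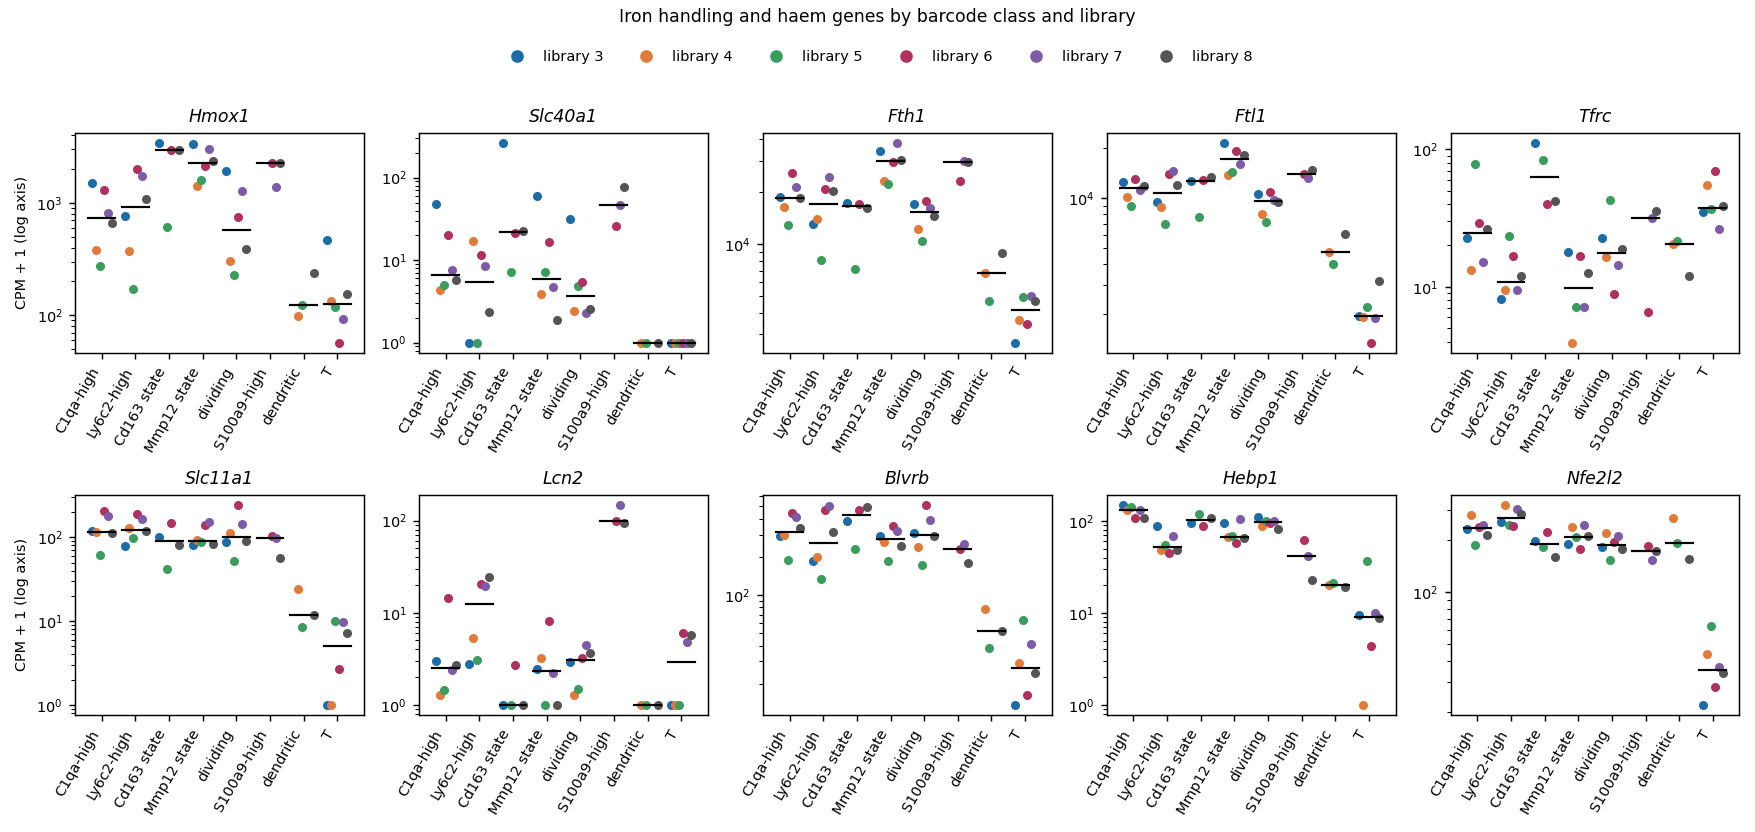
Level of each of the 10 genes, as CPM + 1 on a log axis, in 8 classes of barcodes. Each point is a library with at least 20 barcodes of the class, coloured by library, and the black line is the median. Hmox1 has its highest medians in the Cd163 state, S100a9-high barcodes and the Mmp12 state, and Fth1 and Ftl1 have theirs in the Mmp12 state. The Hmox1 medians named cover 4, 3 and 6 libraries, so they are not ranked among themselves. Most of the genes are low in T barcodes, but Tfrc is not. The Lcn2 median in T barcodes, 1.90 CPM, lies above that in C1qa-high macrophages, 1.54 CPM.

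Hmox1 and the ferritin chains had the highest correlations among members over single barcodes. In the non-dividing macrophages Hmox1 was at 1963, 695, 491, 1803, 1494 and 1166 CPM in libraries 3 to 8. Fth1 was at 20348, 16736, 11298, 22363, 24979 and 20122 CPM, and Ftl1 at 13725, 10628, 8709, 14257, 13327 and 13004 CPM in the same order. Library 5 was lowest for all 3 genes, as it was for Slc11a1, Blvrb and Nfe2l2, and library 4 was second lowest for Hmox1, Fth1 and Ftl1. The other libraries were close together for Ftl1 and not for Hmox1. Ftl1 reads can be shared with near-identical copies, of which the annotated Ftl1-ps1 was counted at 35.1 CPM.

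Hmox1 was unevenly spread over barcodes. The tenth of non-dividing macrophages with the most Hmox1 held 67.1% of its UMIs and 12.4% of all UMIs. The same share was 34.6% for Fth1, 30.4% for Ftl1, 37.6% for Blvrb and 34.7% for Nfe2l2. It was 71.9% for Tfrc, of which most barcodes held no UMI, and Slc40a1 and Lcn2 were found in too few barcodes for the measure. Hmox1 was nevertheless detected in 79.7% of these barcodes, so many held few UMIs and a few held very many, up to 558 UMIs in 1 barcode. In T barcodes, which were shallower, 22.6% held a Hmox1 UMI, and how much of the low counts is background was not tested.

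**Figure D2:**
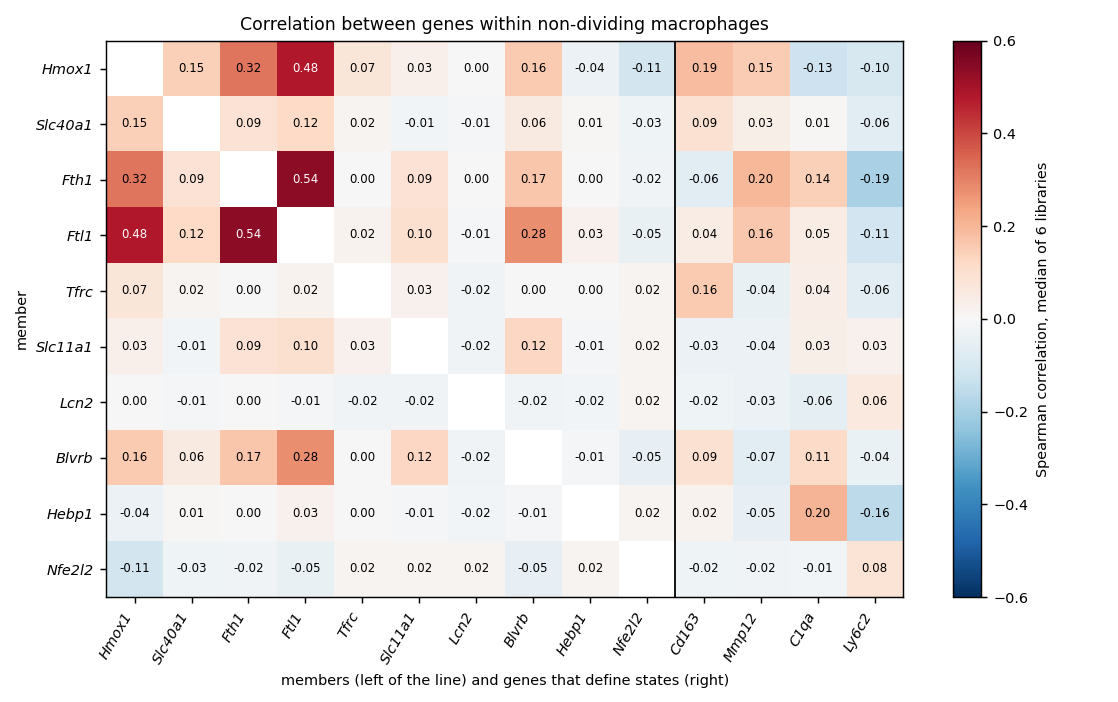
Spearman correlation, median over 6 libraries, between members (left of the line) and between members and 4 genes that define states (right of it), over non-dividing macrophages thinned to 5000 UMIs each. The block of Hmox1, Fth1 and Ftl1 holds the 3 highest values, 0.54, 0.48 and 0.32.

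Within single libraries the 3 genes rose and fell in the same barcodes. Over 3168 non-dividing macrophages thinned to 5000 UMIs (243 shallower barcodes were left out), the Spearman correlation of Fth1 with Ftl1 had a median of 0.54 and a range of 0.49 to 0.65 over the 6 libraries. That of Hmox1 with Ftl1 was 0.48 (0.34 to 0.63), and that of Hmox1 with Fth1 was 0.32 (0.18 to 0.50). Blvrb, the next enzyme of haem breakdown, had a median of 0.28 with Ftl1 and of 0.16 with Hmox1, positive in 6 of 6 libraries for both. The correlation of Nfe2l2 with Hmox1 was negative in 6 of 6 libraries, with a median of -0.11. These are descriptions over barcodes that share a library, and thinned counts of low genes give weak correlations whatever their true relation.

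The question of the first comparison was how far mature TAMs differ from monocyte-like cells in iron genes. Tfrc and Hebp1 were higher in C1qa-high than in Ly6c2-high macrophages, and no member was lower past the threshold. The threshold, used throughout, is a median within-library ratio of at least 1.5-fold with the same sign in every library that had 20 barcodes on both sides. Of all 7950 genes with at least 200 UMIs, 9.06% were higher and 8.42% lower by this rule, so 2 of 10 members higher and 0 of 10 lower stand beside a sizeable background. The median log2 ratio was 0.18 over the members and 0.07 over all genes.

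Hebp1, the haem-binding protein, was at 149, 130, 142, 106, 132 and 107 CPM in C1qa-high macrophages of libraries 3 to 8. In Ly6c2-high macrophages it was at 86.6, 47.0, 53.8, 43.6, 67.2 and 47.9 CPM, so the lowest C1qa-high value exceeded the highest Ly6c2-high value. Its median log2 ratio was 1.2 (0.77 to 1.45, 6 of 6 libraries). Within non-dividing macrophages Hebp1 also went with C1qa (median Spearman correlation 0.20, 0.18 to 0.26) and against Ly6c2 (-0.16), which is the same contrast in other words.

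Tfrc, the iron uptake receptor, was at 21.8, 12.2, 76.7, 28.2, 14.2 and 25.3 CPM in C1qa-high macrophages of libraries 3 to 8 and at 7.22, 8.55, 22.3, 15.6, 8.46 and 11 CPM in Ly6c2-high ones. The groups overlapped across libraries, since library 5 was high on both sides, but within each library the C1qa-high value was the higher. Its median log2 ratio was 0.97 (0.47 to 1.74). Where tertiles of C1qa and Ly6c2 replaced the medians it was 1.64, but the libraries no longer shared a sign and the gene did not pass. C1qa-high barcodes were deeper, with a median of 14124.5 UMIs against 9675.5. At 2000 UMIs per barcode 5.23% of C1qa-high and 1.78% of Ly6c2-high barcodes held a Tfrc UMI. These shares pool libraries, and library 5 held 226 of the 1000 C1qa-high but 123 of the 1072 Ly6c2-high barcodes.

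Hmox1 had no common direction here. It was at 1515, 377, 275, 1316, 814 and 666 CPM in C1qa-high macrophages and at 762, 376, 171, 1998, 1734 and 1082 CPM in Ly6c2-high ones of libraries 3 to 8. The log2 ratio was 0.99 in library 3 and 0.68 in library 5, was 0.00 in library 4, and was -0.60, -1.09 and -0.70 in libraries 6, 7 and 8. Nfe2l2 was lower in C1qa-high macrophages in 6 of 6 libraries, by a median of -0.25 that lies under the threshold. Lcn2 was at 0.28 to 13.6 CPM in C1qa-high and at 1.81 to 23.4 CPM in Ly6c2-high macrophages, with a ratio below 0 in 5 of 6 libraries. Without library 3 it passed the threshold, at -2.05.

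Slc40a1 was at 47.6, 3.34, 3.97, 19.4, 6.56 and 4.78 CPM in C1qa-high macrophages of libraries 3 to 8 and at 0.00, 16, 0.00, 10.7, 7.61 and 1.38 CPM in Ly6c2-high ones. The order of the groups differed between libraries, and the C1qa-high value was higher in 4 of 6. The other members, Fth1, Ftl1, Slc11a1 and Blvrb, had median log2 ratios between 0.01 and 0.29 with both signs among the libraries. Of 59 other iron and haem genes, listed by function, 40 had enough UMIs, of which 2 were higher in C1qa-high macrophages and 5 lower. Cp, the ferroxidase ceruloplasmin, was higher by 2.54 and Aco1, one of the iron regulatory proteins, by 0.93 on the log2 scale. Hp, haptoglobin, which binds free haemoglobin (-4.85), Slc7a11, a cystine importer (-2.16), and Fbxl5, a sensor of iron (-1.13), were lower.

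**Figure D3:**
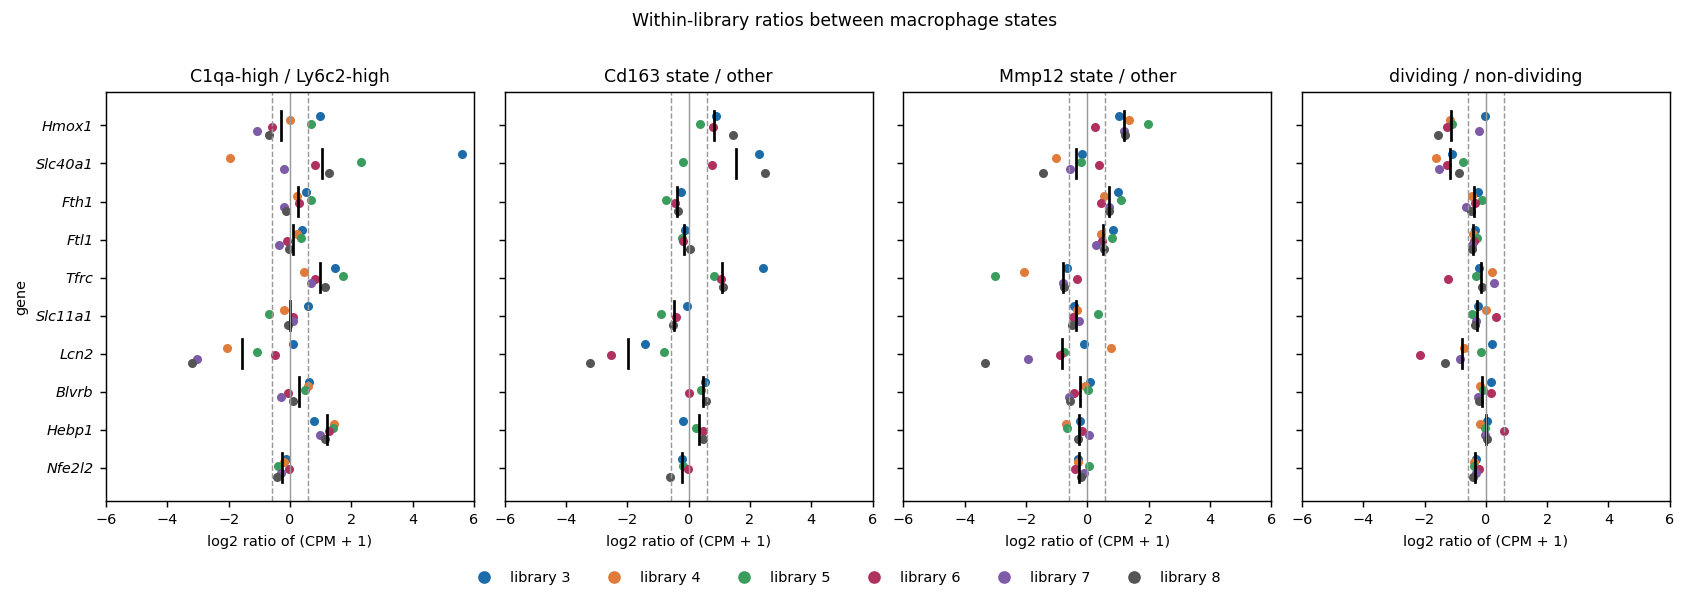
Within-library log2 ratio of CPM + 1 for each member in 4 comparisons of macrophages. Points are libraries, black lines are medians, and dashed lines mark 1.5-fold. Hmox1 lies above 0 in every library for the Cd163 and Mmp12 states and on both sides of 0 for C1qa-high against Ly6c2-high, and Tfrc lies above 0 for the Cd163 state and below it for the Mmp12 state.

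The Cd163 state was set against all other non-dividing macrophages in the 4 libraries with 20 such barcodes, libraries 3, 5, 6 and 8. Cd163 is the receptor that takes up haemoglobin bound to haptoglobin. Hmox1 and Tfrc were higher and Lcn2 was lower in this state. Over all 8162 genes 4.41% were higher and 5.43% lower, against 2 and 1 of the 10 members, and the median log2 ratio was 0.10 over members and 0.01 over all genes.

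Hmox1 was at 3439, 612, 2957 and 2982 CPM in the Cd163 state of libraries 3, 5, 6 and 8. The other non-dividing macrophages of these libraries had 1860, 469, 1707 and 1093 CPM. The 3 high libraries were close to each other and library 5, which held 95 of the 203 barcodes, was the lowest in both groups. Its median log2 ratio was 0.84 (0.38 to 1.45, 4 of 4 libraries).

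Tfrc was at 110, 83.2, 39 and 41.2 CPM in the Cd163 state of libraries 3, 5, 6 and 8. It was at 19.6, 46.3, 18.3 and 18.5 CPM in the other macrophages. The ratio had a log2 median of 1.08 (0.83 to 2.43, 4 of 4 libraries), and at 2000 UMIs per barcode 16.9% of the barcodes of the state held a Tfrc UMI (exact 95% binomial interval 12 to 22.8%, counting error only). The share was 4.32% over all non-dividing macrophages and 7.27% over T barcodes. These shares pool libraries, and library 5, with the highest Tfrc level in macrophages, held 95 of the 203 barcodes of the state but 34 of the 318 T barcodes.

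Slc40a1, the exporter, was at 264, 6.24, 20.3 and 21.8 CPM in the Cd163 state and at 52.5, 7.22, 11.5 and 3.02 CPM in the other macrophages of libraries 3, 5, 6 and 8. It was higher in 3 of 4 libraries, with a median log2 ratio of 1.54, and did not pass because of library 5 (-0.18). Without library 5 the median was 2.31 and the gene passed, as it did, at 1.27, in 4 libraries without the 10% of barcodes with most UMIs. Lcn2 had 1 UMI in the state over the 4 libraries (0.451 CPM) and 199 UMIs in the other macrophages (7.58 CPM), and its call was lost without library 3, 5, 6 or 8, each of which left fewer than 200 UMIs, with ratios from -2.52 to -1.41. With a pseudocount of 10 CPM the ratio was -0.55 and did not pass.

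Barcodes with Slc40a1 also had more Hmox1. Slc40a1 was found in 135 of the 3411 non-dividing macrophages, 12 to 42 in each library. Hmox1 was at 8426, 5779, 1433, 2953, 6940 and 2322 CPM in those of libraries 3 to 8. In the barcodes without Slc40a1 it was at 1144, 570, 461, 1683, 1285 and 1133 CPM, lower in 6 of 6 libraries. Cd163 was lower without Slc40a1 in 5 of 6 libraries, library 6 being the exception. Barcodes with the gene were deeper, with a median of 14646 UMIs against 11386, and after thinning the correlation of Hmox1 with Slc40a1 was positive in 6 of 6 libraries, with a median of 0.15 (0.07 to 0.36).

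Set against all other non-dividing macrophages, the Mmp12 state included, the ferritin genes did not rise with Hmox1 in the Cd163 state. Fth1 was at 17266, 7158, 16910 and 16052 CPM in the state and at 20564, 12054, 22816 and 20286 CPM in the other macrophages, lower in 4 of 4 libraries, with a median log2 ratio of -0.38 that lies under the threshold. Ftl1 had a median ratio of -0.15. Summed over the 4 libraries in place of the median, Fth1 (-0.62) and Slc11a1 (-0.62) passed as lower. The number of Fth1 UMIs per Ftl1 UMI had a median of 1.26 (0.93 to 1.37, 4 libraries) in the Cd163 state. Over 6 libraries it was 1.58 (1.44 to 1.96) in C1qa-high and 1.54 (1.15 to 1.68) in Ly6c2-high macrophages, the latter range overlapping that of the state.

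Of the 59 other iron and haem genes 41 had enough UMIs in this comparison, of which 8 were higher and 4 lower. Cd163 itself is among the 8 and is what the state was chosen on. The largest of the other 7 were Steap3, a ferrireductase of the endosome that works beside Tfrc (1.21), and Hfe, a partner of Tfrc (1.06). Slc7a11 (-1.95), Hp (-1.83) and Alas1, the first enzyme of haem synthesis (-1.47), were lower.

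The Mmp12 state, with the macrophage elastase gene, was compared with the other non-dividing macrophages in 6 libraries. Hmox1 and Fth1 were higher and Tfrc was lower. Over all 8996 genes 2.4% were higher and 5.95% lower, against 2 and 1 of the 10 members. The median log2 ratio was -0.27 over members and -0.18 over all genes, so that a ratio of 0 lies above the middle of the genes.

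Hmox1 was at 3377, 1426, 1587, 2117, 3012 and 2384 CPM in the Mmp12 state of libraries 3 to 8. The other macrophages had 1649, 551, 397, 1778, 1320 and 1023 CPM. The state was higher in each library, most in library 5 and least in library 6, with a median log2 ratio of 1.2 (0.25 to 1.99). As a ratio of the highest to the lowest library, the spread was smaller in the Mmp12 state than outside it.

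Fth1 was at 34386, 22873, 22045, 29508, 38259 and 30552 CPM in the Mmp12 state and at 17228, 15531, 10377, 21794, 23464 and 18894 CPM in the other macrophages, with a median log2 ratio of 0.70 (0.44 to 1.09). Ftl1 was higher in 6 of 6 libraries too, by 0.51 (0.29 to 0.84), which is under the threshold. With the highest 5% by Mmp12 it passed, at 0.65 in 5 libraries. Both ferritin chains and Hmox1 were thus above the others in every library. With the highest 20% by Mmp12 in place of 10%, Fth1 was at 0.57 and Tfrc at -0.58, and both lay under the threshold.

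Tfrc was at 17, 2.93, 6.10, 15.8, 6.17 and 11.6 CPM in the Mmp12 state and at 27.5, 15.4, 56.0, 20.2, 11.4 and 20.3 CPM in the other macrophages, a median log2 ratio of -0.78 (-3.00 to -0.33). The value in the state rests on 46 UMIs, and with a pseudocount of 10 CPM in place of 1 it was -0.48 and did not pass. Lcn2 was below 0 in 5 of 6 libraries and passed as lower without library 4 (-0.90). Tfrc thus differed in sign between the Cd163 state and the Mmp12 state, each set against macrophages that include the other state. That difference was not tested.

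Of 44 other iron and haem genes with enough UMIs, 4 were higher and 6 lower in the Mmp12 state. The higher ones were the metallothioneins Mt2 (1.79) and Mt1 (1.13), which bind metal ions, Slc7a11 (1.0), and Gclm (0.80) of glutathione synthesis. Among the lower ones were Cd163 (-4.54), whose high barcodes were kept out of the state by construction, Cp (-2.64) and Hp (-1.37).

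In dividing macrophages Hmox1 and Slc40a1 were lower than in non-dividing ones, and no member was higher. Over all 9673 genes 8.45% were higher and 4.84% lower, against 0 and 2 of the 10 members. Over the members the log2 ratio had a median of -0.38, and over all genes 0.06. Dividing barcodes had a median of 22740 UMIs and non-dividing ones 11452.

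Hmox1 was at 1932, 305, 228, 750, 1280 and 391 CPM in the dividing macrophages of libraries 3 to 8, beside the non-dividing values given above. The ratio was near 0 in library 3 (-0.02) and library 7 (-0.22) and between -1.57 and -1.11 in the other libraries, with a median of -1.15. When dividing cells were taken at 6 or more UMIs of Top2a and Birc5, the median was -1.26 but the sign was no longer shared by all libraries. Thinned to 2000 UMIs, 32.2% of dividing and 47.8% of non-dividing barcodes held a Hmox1 UMI.

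Slc40a1 was at 30.5, 1.41, 3.86, 4.49, 1.29 and 1.57 CPM in dividing and at 66.4, 6.38, 7.06, 12.2, 5.68 and 3.75 CPM in non-dividing macrophages. It was lower in 6 of 6 libraries, with a median log2 ratio of -1.18 (-1.61 to -0.73), on 74 UMIs in the dividing class. With a pseudocount of 10 CPM the ratio was -0.50 and did not pass. Fth1 (-0.40), Ftl1 (-0.41) and Nfe2l2 (-0.36) were below 0 in 6 of 6 libraries and under the threshold. Thinned to 2000 UMIs, Nfe2l2 passed as lower (-0.59). Lcn2 passed as lower without library 3 (-0.84).

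Of 46 other iron and haem genes 5 were lower in dividing macrophages, and Alad of haem synthesis was among the higher ones (0.96). Hp (-2.88), Cd163 (-2.09) and Slc7a11 (-1.52) were the lowest.

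S100a9-high barcodes could be compared with macrophages in libraries 6, 7 and 8. Lcn2 and Slc40a1 were higher in them, and Slc11a1, Blvrb and Hebp1 were lower. Over all 8589 genes 6.24% were higher and 18.4% lower, against 2 and 3 of the 10 members, and the median log2 ratio was 0.23 over members and -0.22 over all genes. With only 3 libraries a shared sign is common.

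Lcn2, a granule protein of neutrophils, was at 98.0, 147 and 94.0 CPM in S100a9-high barcodes of libraries 6, 7 and 8. In macrophages it was at 12.3, 6.15 and 6.63 CPM, and the groups were far apart, with a median log2 ratio of 3.64 (2.89 to 4.37). Of S100a9-high barcodes 15.8% held a Lcn2 UMI at 2000 UMIs, against 1.87% of Ly6c2-high, 0.402% of C1qa-high and 0.692% of T barcodes. The T share rests on 2 barcodes, with an exact 95% interval of 0.0839 to 2.48%. Summed over libraries, Lcn2 was at 16.7 CPM in Ly6c2-high, 1.95 CPM in C1qa-high and 3.23 CPM in T barcodes. These shares and sums pool libraries whose Lcn2 levels differ, and 14 of the 29 C1qa-high UMIs lay in library 6. Within libraries the ratio of C1qa-high to Ly6c2-high had a log2 median of -1.56 and did not pass.

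Slc40a1 was at 25.2, 45.6 and 75.2 CPM in S100a9-high barcodes and at 11.4, 4.69 and 3.18 CPM in macrophages of libraries 6, 7 and 8, with a median log2 ratio of 3.04 (1.08 to 4.19). Its 43 UMIs over all libraries lay in 24 of the 121 barcodes. These 24 had S100a8 at 2709 CPM and C1qa at 642 CPM, and the other 97 had 3516 and 539 CPM. Macrophages had C1qa at 3052 CPM. Neither the dendritic nor the T barcodes held a Slc40a1 UMI. Without library 8 the median was 2.06, and without any 1 of the 3 libraries the gene had fewer than 200 UMIs and could not be called. In the 37 S100a9-high barcodes with no UMI of Csf1r or Adgre1, fewer than 20 in each library, Slc40a1 summed to 40.3 CPM on 10 UMIs.

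Hmox1 was at 2272, 1374 and 2283 CPM in S100a9-high barcodes and at 1694, 1445 and 962 CPM in macrophages of libraries 6, 7 and 8. It was higher in 2 of 3 libraries, and it passed as higher without library 7 (0.83) and against macrophages with at least 6 UMIs of Csf1r and Adgre1 (0.71). Tfrc passed as higher without library 6 (1.08). Slc11a1 (-0.91), Blvrb (-0.88) and Hebp1 (-1.28) were lower in 3 of 3 libraries. When all 692 barcodes with S100a9 were taken, those with macrophage genes included, all 6 libraries could be compared, which makes a shared sign rarer, and only Lcn2 passed, beside 1.85% of all genes in either direction. Slc40a1 was at 1.2 without a shared sign, and Slc11a1, Blvrb and Hebp1 were between -0.21 and -0.19. Of 41 other iron and haem genes 3 were higher, Slc7a11 (2.0), Hp (1.40), which neutrophils store in granules, and Fbxl5 (1.32), and 7 were lower, Steap3 (-1.33) the most.

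**Figure D4:**
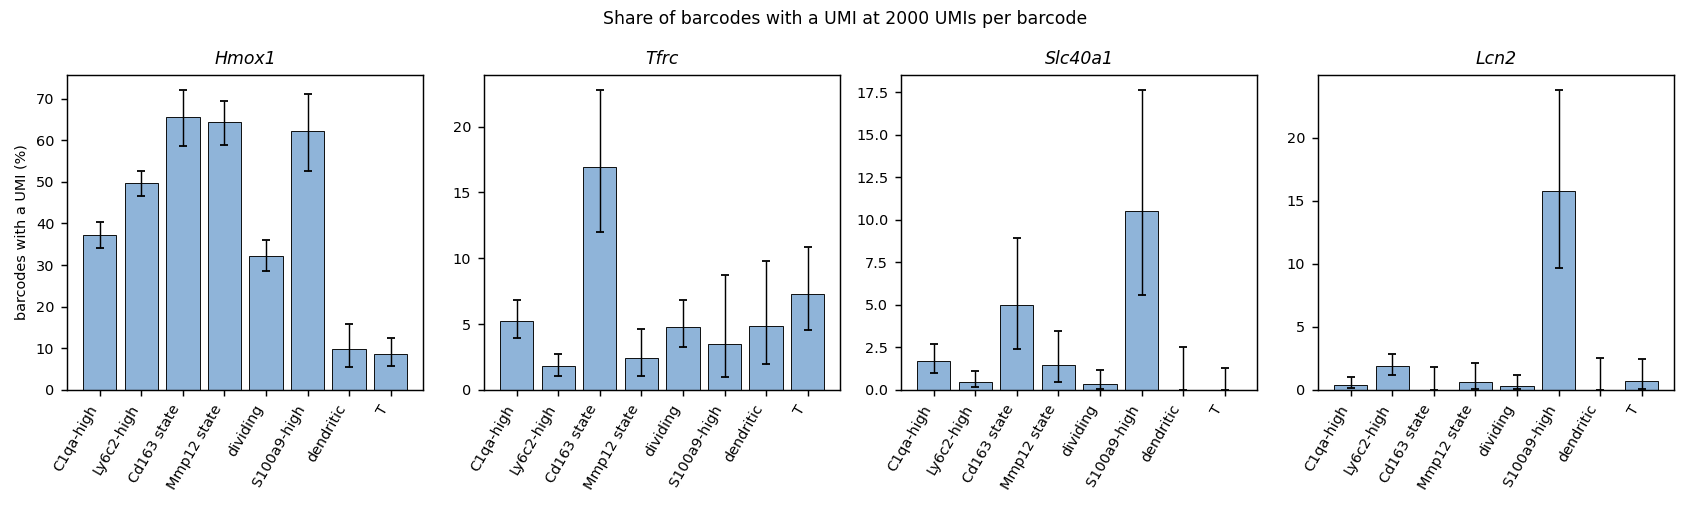
Share of barcodes with at least 1 UMI of Hmox1, Tfrc, Slc40a1 or Lcn2 after each barcode was thinned to 2000 UMIs, in 8 classes. Bars are shares over all libraries and error bars are exact 95% binomial intervals, which cover counting error only. Tfrc is at 16.9% in the Cd163 state, and Slc40a1 and Lcn2 are at 10.5% and 15.8% in S100a9-high barcodes.

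Dendritic barcodes were low in most of the haem and ferritin genes. In libraries 4, 5 and 8, 0 of the 8 members with enough UMIs were higher than in macrophages and 6 were lower, beside 12.4% higher and 22.3% lower over all 8826 genes. Over these members the log2 ratio had a median of -1.60, and over all genes -0.12. Hmox1 was at 96.7, 122 and 238 CPM in dendritic barcodes and at 578, 426 and 962 CPM in macrophages, a median log2 ratio of -2.01. Fth1 (-1.18), Ftl1 (-1.06), Slc11a1 (-2.98), Blvrb (-2.23) and Hebp1 (-2.26) were lower in 3 of 3 libraries. The 101 barcodes with Flt3 and at least 3 UMIs of Csf1r and Adgre1 were left out, and no comparison included them. Summed over libraries, Hmox1 was at 733 CPM in them and at 126 CPM in dendritic barcodes. Fth1 was at 11929 against 6273 CPM, Slc11a1 at 70.2 against 9.60 CPM, and Slc40a1 had 29 UMIs against 0.

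Nfe2l2 and Tfrc were the members of that comparison without a shared direction. Nfe2l2 was at 267, 191 and 154 CPM in dendritic barcodes and 267, 190 and 223 CPM in macrophages, a median ratio of 0.00. Tfrc passed as lower without library 4 (-0.99). Slc40a1 and Lcn2 had no UMI in the dendritic barcodes of any library. Macrophages of libraries 4, 5 and 8 had 4.89, 6.26 and 3.18 CPM of Slc40a1 and 0.843, 0.602 and 6.63 CPM of Lcn2, and neither gene had the UMIs to be tested. Hbb-bs of red blood cells was at 0.00 to 3.71 CPM in the dendritic barcodes of these 3 libraries. Of 42 other iron and haem genes 17 were lower, Cp (-3.55) and Steap3 (-3.40) the most, and 2 were higher, Iscu, a scaffold of iron-sulfur clusters (1.38), and Hfe (0.86).

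T barcodes were below macrophages for 9 of the 10 members in all 6 libraries, with a limit for Lcn2 given below. Over all 9872 genes 22.2% were lower and 15.7% higher. The median log2 ratio was -2.62 over the members and 0.00 over all genes. Fth1, the member with most UMIs, was at 2688, 3619, 4918, 3464, 4986 and 4686 CPM in libraries 3 to 8, against 19378, 15390, 11082, 21877, 22935 and 18624 CPM in macrophages. Hmox1 was at 465, 132, 117, 56.1, 91.2 and 153 CPM, each below the 426 to 1954 CPM of the macrophages of its own library. At 2000 UMIs 8.65% of T and 9.72% of dendritic barcodes held a Hmox1 UMI, with median depths of 6312 and 8842 UMIs before thinning. The exact 95% intervals, for counting error only, were 5.68 to 12.5% and 5.42 to 15.8%. These shares pool libraries, and library 5 held 34 of the 318 T but 58 of the 147 dendritic barcodes, so the classes are not compared by them.

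Slc11a1 had the lowest median ratio of CPM + 1 in T barcodes (-5.15), with 13 UMIs, or 0.00 to 8.97 CPM, against 65.6 to 197 CPM in macrophages. Blvrb (-3.59), Hebp1 (-3.45), Nfe2l2 (-2.76) and Ftl1 (-2.53) were lower in 6 of 6 libraries. Slc40a1 had no UMI in T barcodes and was at least 9.58-fold lower, with a floor of 3 UMIs over all libraries, and at least 4.80-fold lower without library 3, which held 305 of the 607 UMIs in macrophages. Lcn2 had 9 UMIs in T barcodes, and its call (-0.78) was lost without library 6 (-0.68) or library 8 (-0.88), where fewer than 200 UMIs were left. It was lost with enough UMIs too, at -0.48 with counts summed over libraries and at -0.20 with a pseudocount of 10 CPM. When the 1060 barcodes with Cd3e, no Ncr1 or Flt3 and fewer than 5 UMIs of S100a9 were taken, whatever their Csf1r and Adgre1, 3 members no longer passed. Fth1 was at -0.55, under the threshold, and Slc40a1 (-1.26) and Lcn2 (-0.67) were past the fold without a shared sign. In sums over libraries the members that still passed were nearer to macrophages too. Slc11a1 was at 73.6 CPM in the 1060 barcodes, 4.66 CPM in T barcodes and 125 CPM in macrophages. Hmox1 was at 726, 137 and 1092 CPM in the same order.

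Tfrc was the exception. It was at 33.8, 54.4, 35.9, 68.0, 25.3 and 37.5 CPM in T barcodes of libraries 3 to 8 and at 24.4, 14.0, 49.4, 18.6, 11.4 and 19.0 CPM in macrophages. T barcodes were higher in 5 of 6 libraries, with a median log2 ratio of 1.01, and the gene did not pass because of library 5 (-0.45), the library with the highest Tfrc in macrophages. Without library 5 it passed, at 1.08. Of 46 other iron and haem genes 24 were lower in T barcodes, among them Hfe (-4.32), Lrp1, a receptor for haem bound to haemopexin (-3.60), and Steap3 (-3.58).

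The members with the least spread of medians between the 5 plotted classes of macrophages were Nfe2l2, Slc11a1 and Blvrb. The median over libraries of Nfe2l2 ran from 187 CPM in dividing to 269 CPM in Ly6c2-high macrophages. That of Slc11a1 ran from 89.2 CPM in the Cd163 state to 123 CPM in Ly6c2-high macrophages, and that of Blvrb from 257 CPM in Ly6c2-high macrophages to 423 CPM in the Cd163 state. Medians of the Cd163 state cover 4 libraries and those of the other macrophage classes 6, so part of these ranges can come from the libraries. Over non-dividing macrophages the libraries covered a wider range than these medians for Slc11a1, 70.5 to 191 CPM, and for Blvrb, 181 to 459 CPM. For Nfe2l2 they ran from 202 to 287 CPM, and the within-library ratios above were below 0 in 6 of 6 libraries for C1qa-high against Ly6c2-high and for dividing against non-dividing macrophages.

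Profiles over classes and libraries grouped the members as well. Over 46 sums of 1 class in 1 library and 9928 genes, the gene with the highest Pearson correlation of log2(CPM + 1) with Fth1 was Ftl1 (0.953). Hmox1 was most like Por (0.877), the reductase that feeds electrons to haem oxygenase, then Plin2 (0.869) and Ftl1 (0.857). Slc40a1 was most like Hmox1 (0.722), and Blvrb most like Slc11a1 (0.950). Lcn2 was most like Mirt2 (0.882) and S100a9 (0.871), Hebp1 like Plxnb2 (0.940) and Lgmn (0.921), Nfe2l2 like Tyrobp (0.969), and Slc11a1 like Fcgr4 (0.952). The highest value of Tfrc was 0.720, with Fam53b, about as low as that of Slc40a1 and below those of the other members. The sums share libraries and depth, and T and dendritic sums are low in most members.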

How the data were processed

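The authors deposited raw UMI counts from a 3′ droplet kit (10x Chromium v3.1) as 1 matrix. The submitters' processing notes name Cell Ranger 1.2, Seurat 3.1.5, R 4.0.1 and mm10. All columns were used and no barcode was removed. Counts were summed per class and library, and log2 ratios were taken of CPM + 1 within libraries (Python 3.11.15, numpy 2.4.6, scipy 1.17.1). The procedure was tested on simulated counts in which ratios varied between libraries by counting error only. The real spread between libraries and barcodes was not part of that test. Genes needed 200 UMIs over the barcodes compared. No doublet caller was run, and intervals cover counting error only. C1qa-high macrophages were planned with Ly6c2 below its median, but this median was 0, so that no Ly6c2 was required instead. Cd163 was present in 8.94% of non-dividing macrophages, so the top 10% came down to the minimum of 2 UMIs. The members, the classes and the list of other iron genes were chosen with earlier results of these data known. Named were all members, up to 5 list genes with the largest ratio per comparison and the 3 most similar profiles per member. Slc7a11 and Gclm in the Mmp12 state, Alad in dividing macrophages and Iscu and Hfe in dendritic barcodes were named after their values were seen. The values of 1 gene of the list are not reported here. Alternatives changed 1 choice each, which could also change the libraries with 20 barcodes.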

Additional observations from a re-analysis of the deposited data

Results flagged for a closer look

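Among the 6 libraries, whose treatments are not known, the non-dividing macrophages had 2 members with a value far from the rest. The gap to the nearest library was 0.865 of the whole range for Slc40a1 and 0.643 for Tfrc. Chance gives gaps past the limit used in about 1 in 20 groups, and 10 genes were looked at. Slc40a1 was at 66.4 CPM in library 3 and at 3.75 to 12.2 CPM in the others. There 29 of 326 barcodes held its 257 UMIs, and without the 3 barcodes that had most it was at 43.7 CPM. Tfrc was at 52.0 CPM in library 5 and at 10.9 to 25.6 CPM in the others. Library 5 had the largest share of the Cd163 state, 14.4% of its non-dividing macrophages, and without that state Tfrc was at 46.3 CPM there.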

How the results depend on the processing

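No paired analysis was possible because barcodes are not tied to tumors or replicate numbers. This holds for the treatments, whose comparison and its alternatives were not run, while classes were compared within libraries. Of 1070 values of single members under alternatives, 1003 moved by less than the spread between libraries, 67 moved by more and 0 called values changed sign. Part of the 1003 could not move. The 2-fold threshold and the lifted minimum of UMIs do not enter the ratio. Leaving out a library that had not entered a comparison does not change it either. Leaving out 1 library at a time, the number of members past the threshold ran from 2 to 3 for C1qa-high against Ly6c2-high macrophages, 2 to 3 for the Cd163 state, 3 to 4 for the Mmp12 state, 2 to 3 for dividing macrophages, 4 to 5 for S100a9-high, 6 to 7 for dendritic and 8 to 10 for T barcodes. At a 2-fold threshold the number was 1 of the main 2 for C1qa-high, 1 of 3 for the Mmp12 state and 3 of 5 for S100a9-high barcodes. The number at this threshold was 2 of 3 for the Cd163 state (Hmox1, at 0.84, was lost) and 8 of 9 for T barcodes (Lcn2 was lost). Thinned to 2000 UMIs it was 1 for C1qa-high, 1 for the Cd163 state and 2 for S100a9-high barcodes, where all lost members had fewer than 200 UMIs left except Hebp1 in S100a9-high barcodes, at -1.08 on 332 UMIs. It was 1 for C1qa-high where tertiles replaced the median (Tfrc, at 1.64, was lost), 5 for the Cd163 state with counts summed over libraries, 1 for the Mmp12 state at the highest 20%, 1 for dividing macrophages both with a pseudocount of 10 CPM and at 6 UMIs of Top2a and Birc5, and 1 for S100a9-high barcodes with macrophage genes included, and the cause was not tested. Barcodes with S100a9 and no Csf1r or Adgre1 reached 20 in no library and gave no value. A denominator without mitochondrial, ribosomal and ferritin genes changed no member's call, although it moved the median of all genes in T barcodes from 0.00 to 0.17. Slc40a1, Lcn2 and Tfrc often had fewer than 200 UMIs after thinning or without a library, which limits what can be said of them.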
